A study of Danio rerio with 8 samples.

Results

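Enzymes and protein complexes that write, remove or read marks on chromatin and DNA were examined in the adult zebrafish retina after injury to the optic nerve. The genes were chosen by name, as those whose symbol begins with hdac, sirt, kdm, kmt, dnmt, prmt, setd, ezh, suz12, smarc or brd, or with kat, tet or chd followed by a digit, together with uhrf1, carm1, crebbpa and ep300a. This rule found 89 genes, read by 226 probes, among 13143 genes with a symbol on the array. Neither a tet gene nor crebbpa or ep300a had a matched probe, so these are not analysed here. The same held for sirt1, kat2a, kmt2d, setd1a, setd2, kdm4aa, kdm6a, kdm6ba, kdm7aa, smarcc1a, smarcd3a, chd7, chd8 and brdt. Counts by role below cover measured genes only. RNA was measured on 8 one-colour arrays. The crush group was 4 pools of right retinae taken 3 days after crush of the right optic nerve, and the control group was 4 pools of right retinae of fish that had no operation. Each pool held the retinae of 4 wild-type adult fish, in which the sexes were not told apart, and no group carried a transgene or a deletion. Whole retina was used, so that a change in the number of cells of a type and a change in RNA per cell cannot be told apart.

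Chromatin marks work as layers of instruction on the same DNA sequence. DNA methyltransferases add methyl groups to cytosine, and uhrf1 guides dnmt1 to newly copied DNA so that the pattern is kept when cells divide. Acetyltransferases loosen histones and deacetylases reverse this, lysine and arginine methyltransferases add methyl groups that can favour or repress transcription, and demethylases take those on lysine away. Remodelling complexes of the SWI/SNF and CHD families use ATP to move nucleosomes, and bromodomain proteins bind acetylated lysine. In the zebrafish retina, Müller glia and stem cells of the ciliary margin can divide, and retinal ganglion cells, whose axons form the optic nerve, survive a crush and regrow those axons.

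Between 76.6% and 77.8% of spots were well above background on the crush arrays, against 72.5% to 84.0% on the control arrays, and no spot was saturated. The share of 84.0% was that of control pool 2. That array also had 382 spots flagged as outliers, against 6 to 21 on the others. All crush arrays lay on one slide and all control arrays on another, so that slide and group cannot be told apart. The tissue carried the defining markers of rods, cones, bipolar, amacrine and horizontal cells and Müller glia on arrays of both groups. None of these markers passed the thresholds given below, but the rod markers had a median log2 fold change of -0.48. They ran from -0.53 for saga (limma adjusted p = 0.0317) to 0.05 for rho. For saga and pde6a every crush pool lay below every control pool. The cone opsin opn1mw1 varied widely, from 11.89 to 16.42 in the crush pools and 8.84 to 16.48 in the control pools. So did opn1lw2, from 12.25 to 16.62 and from 10.39 to 16.57, whereas the other cone markers varied far less. All 5 ganglion cell markers measured were under-expressed, with a mean log2 signal of 9.26 to 9.85 in the crush pools and 10.98 to 11.29 in the control pools, and a median log2 fold change of -1.47. Lens genes, which are no part of the retina, averaged 4.21 to 4.61 in the crush pools and 4.91 to 9.24 in the control pools.

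The comparison asked which of the chromatin genes differed in RNA level between injured and intact retinae. Most did not pass the test. The 2 that did were the enzyme ezh2 and its partner suz12a, both of Polycomb repressive complex 2. The other core subunits measured, including the paralogues ezh1 and suz12b, did not pass. Of the called genes, suz12a was dim and passed in only 2 of 8 sets with 1 pool left out. A gene was called over- or under-expressed when its brightest probe changed by at least 1.5-fold with an adjusted p of at most 0.05 in limma, adjusted by the Benjamini-Hochberg method over all probes. Both called genes were over-expressed, which is 2.25% of the 89 genes against 2.47% of all genes with a symbol. None was under-expressed, against 0.883% of all genes. Without adjustment, 12 chromatin genes (13.5%) were higher at p under 0.05, against 12.9% of all genes, and 1 (1.12%) was lower, against 9.06% of all genes.

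The share of chromatin genes that were called was therefore close to that of genes at large. In 12 of the 89 genes (13.5%) every crush pool lay above every control pool, against 10.3% of all genes. In 1 gene (1.12%), brd7, every crush pool lay below every control pool, against 6.53% of all genes. The median log2 fold change was 0.08 over the chromatin genes and 0.01 over all genes, and it was positive in 59 of the 89 genes (66.3%), against 51.4% of all genes. These positive values were mostly small. The median over all genes was itself 0.04 under median scaling and -0.04 with the processed signal scaled to the 75th percentile. Values given below under those scalings include that shift. For 71 of the 89 genes (79.8%) the 95% interval of the fold change lay wholly within 1.5-fold in either direction, which held for 51.5% of all genes. Of the 89 genes, 87 were well above background on all 8 arrays, as were 10600 of the 13143 genes with a symbol. The median standard error of the chromatin genes was 0.12 on the log2 scale, against 0.15 for all genes. Whether signal limited the number of calls was not tested.

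**Figure D1:**
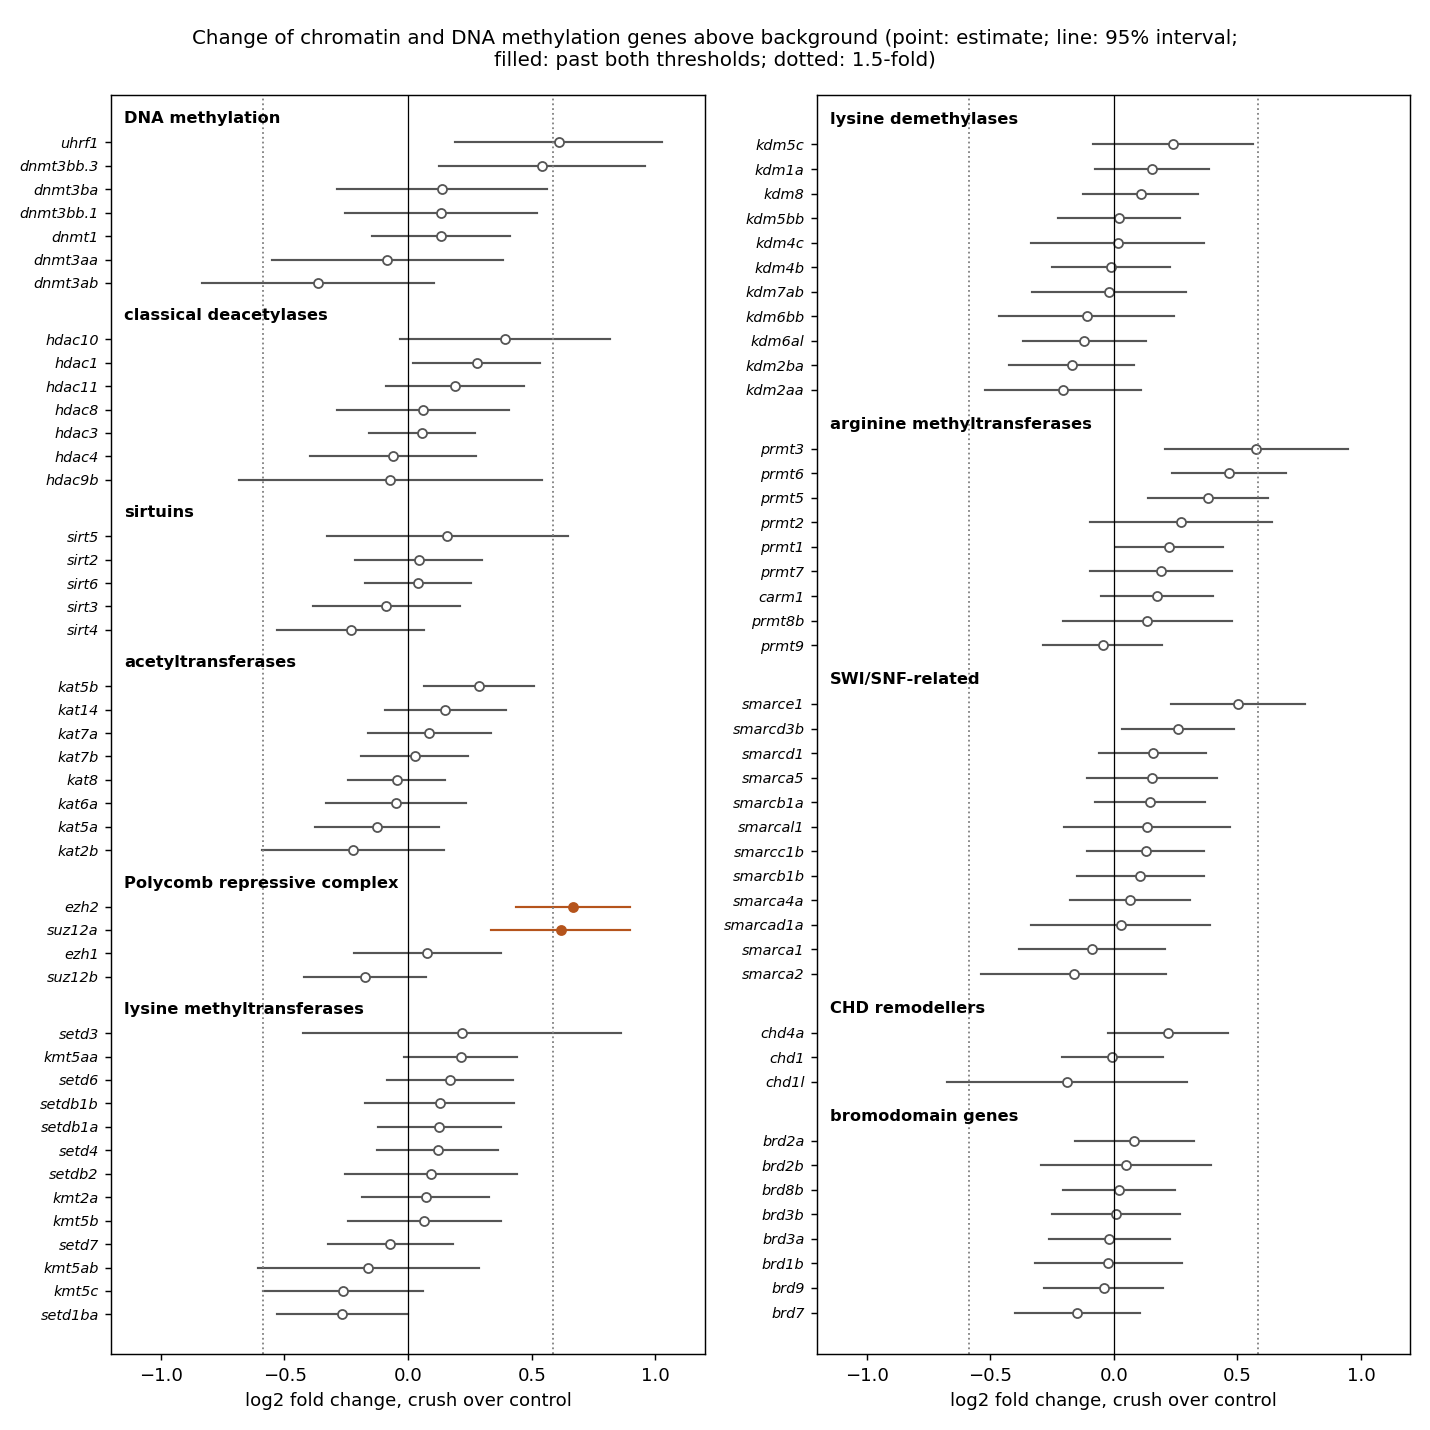
Log2 fold change of crush over control (horizontal axis) for the chromatin genes above background, apart from the member that is neither named nor plotted, grouped by role, with its 95% interval. Filled points passed both thresholds, dotted lines mark 1.5-fold, and ezh2 and suz12a are the 2 filled points.

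Polycomb repressive complex 2 places methyl groups on lysine of histone H3, a mark of silenced genes. Its catalytic subunit is ezh2 or its paralogue ezh1, and suz12 holds the complex together. The log2 signal of ezh2 was 9.03, 9.07, 9.21 and 9.29 in the crush pools, against 8.47, 8.40, 8.48 and 8.57 in the control pools. The groups were well apart, and the spread within each was small, with means of 9.15 ± 0.12 in crush and 8.48 ± 0.07 in control pools (SD, n = 4 each). The fold change was 1.59 (log2 0.67, standard error 0.10, limma adjusted p = 0.0123). A dimmer probe of ezh2 gave 0.46 (adjusted p = 0.295). Its paralogue ezh1 had 8.34, 8.48, 8.60 and 8.12 in crush pools and 8.24, 8.26, 8.24 and 8.49 in control pools. These values overlapped, and the log2 fold change of 0.08 did not pass (95% interval -0.22 to 0.38).

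The gene suz12a was dim. It had 5.82, 5.64, 5.86 and 5.51 in crush pools and 5.22, 4.97, 4.95 and 5.22 in control pools, and was well above background on 4 crush and 3 control arrays. The groups did not overlap, and the fold change was 1.53 (log2 0.62, standard error 0.12, adjusted p = 0.0359). A further probe of suz12a gave 0.53 (adjusted p = 0.168), and no control array had it well above background. Its paralogue suz12b gave a far brighter signal on its own probe, with 11.69, 11.32, 11.44 and 11.37 in crush pools and 11.60, 11.67, 11.61 and 11.64 in control pools. Crush pool 1 was the highest of all 8 pools for suz12b and the other 3 crush pools were the lowest, and the log2 fold change of -0.17 did not pass (adjusted p = 0.415).

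Of the other subunits that work with or beside this complex, 1 of 31 measured genes was over-expressed and none was under-expressed. Their median log2 fold change was 0.01. For all genes the shares called were 2.47% and 0.883%, which apply to each partner list below as well. The calls over all partner lists depended on single pools, as given further on. The over-expressed gene was cbx7a, whose product reads the methyl mark as part of Polycomb repressive complex 1. It had a mean log2 signal of 13.81 ± 0.10 in crush and 13.03 ± 0.22 in control pools (SD, n = 4 each), a log2 fold change of 0.78 (adjusted p = 0.0196). The remaining core subunits did not pass. The log2 fold change was 0.07 for eed, which binds the mark that the complex has made, and 0.22 and 0.07 for the histone-binding subunits rbbp4 and rbbp7.

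**Figure D2:**
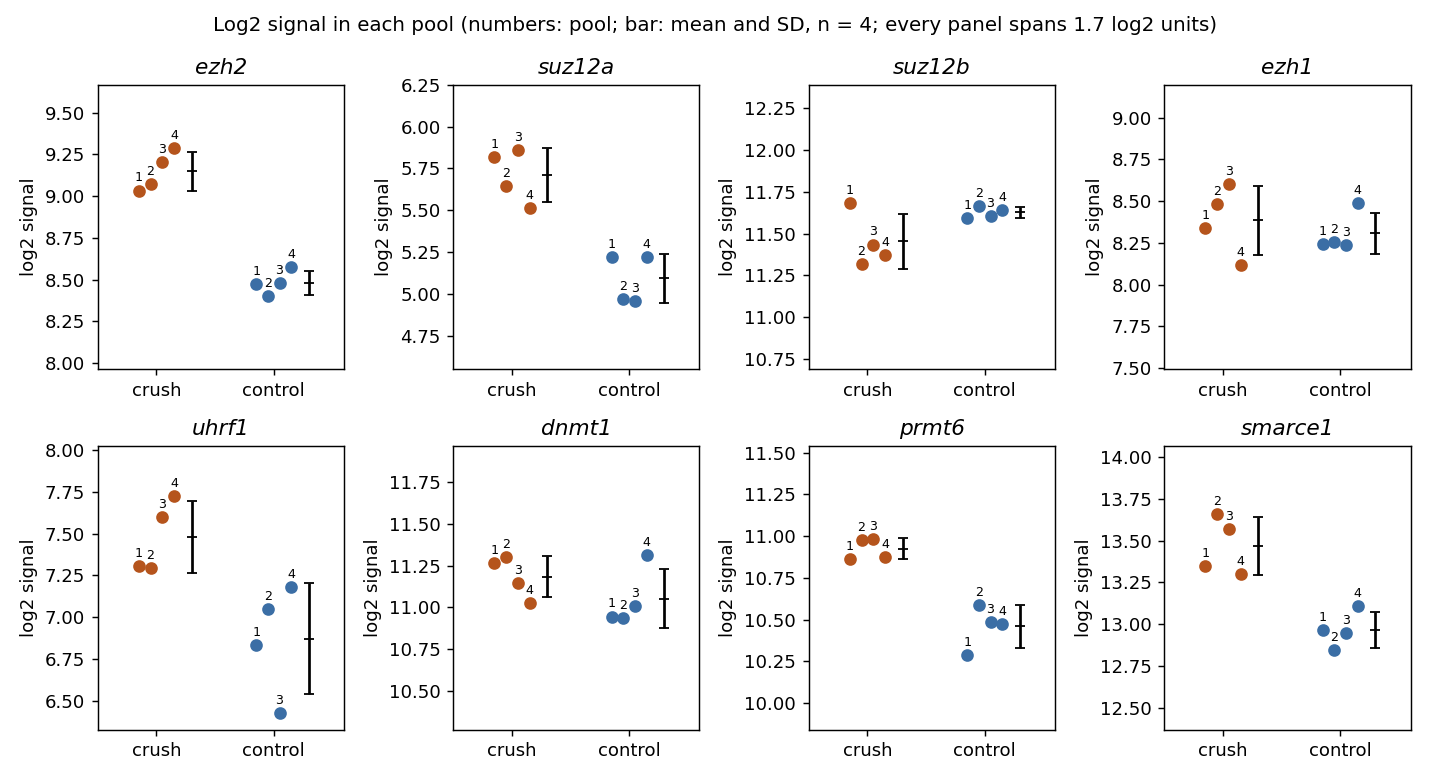
Log2 signal (vertical axis) of 8 chromatin genes in each crush pool (left, brown) and control pool (right, blue), with the mean and SD (n = 4). For ezh2 the crush pools sit between 9.03 and 9.29 and the control pools between 8.40 and 8.57, whereas those of ezh1, suz12b and dnmt1 overlap.

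None of the 8 genes of DNA methylation passed. The widest positive difference was in uhrf1, with 7.31, 7.29, 7.60 and 7.73 in crush pools and 6.83, 7.05, 6.42 and 7.18 in control pools. The groups did not overlap, although the control pools were spread over a wide range. The log2 fold change of 0.61 was past 1.5-fold and missed the adjusted threshold (standard error 0.18, adjusted p = 0.119). Its 4 probes differed, since the next brightest gave 0.02 (adjusted p = 0.969). The maintenance enzyme dnmt1 had 11.26, 11.30, 11.14 and 11.03 in crush pools, against 10.95, 10.94, 11.01 and 11.31 in control pools. Control pool 4 was the highest of all, and the log2 fold change of 0.13 had an interval of -0.15 to 0.41, within 1.5-fold.

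The remaining methyltransferases belong to the Dnmt3 family, which sets new methylation. For dnmt3bb.3 the crush pools had 6.66, 7.14, 7.16 and 6.88 and the control pools 6.41, 6.19, 6.20 and 6.86. Crush pool 1 lay below control pool 4, and the log2 fold change of 0.54 did not pass (adjusted p = 0.155). A dimmer probe of dnmt3bb.3 gave 0.07 (adjusted p = 0.802). The lowest value of the whole set was that of dnmt3ab, with 11.05, 10.71, 10.61 and 10.57 in crush pools and 10.52, 11.28, 11.19 and 11.40 in control pools. Control pool 1 lay below every crush pool while the other 3 lay above, and the log2 fold change was -0.36 (adjusted p = 0.370). A second probe of dnmt3ab had the opposite sign (0.32, adjusted p = 0.597). The log2 fold changes of dnmt3aa, dnmt3ba and dnmt3bb.1 were -0.08, 0.14 and 0.13, and dnmt3bb.2 is given no fold, since no array had it well above background. The median over the 8 fitted values was 0.13, and 6 were positive, or 5 under median scaling and 5 when the processed signal was scaled to the 75th percentile. The 8 values include that of dnmt3bb.2, which is among the 6 positive ones although it was not above background.

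Among genes that work with DNA methylation, over-expression was called in 2 of 21 measured genes and under-expression in none. They were cdca7a, which in mammals helps to bring the remodeller HELLS to DNA, and apobec2b, a member of the cytidine deaminase family. The mean log2 signal of cdca7a was 8.31 ± 0.17 in crush and 6.86 ± 0.69 in control pools (SD, n = 4 each), a log2 difference of 1.45 (adjusted p = 0.0431). The value for apobec2b was 0.88 (adjusted p = 0.0368). The remodeller gene hells had a log2 fold change of 0.32 (adjusted p = 0.437).

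Deacetylases remove acetyl groups from histones and other proteins. None of the 7 classical deacetylases passed, and their median log2 fold change was 0.06, with 5 of 7 positive and all 7 under median scaling. Under that scaling 6 of 7 lay above the median of all genes. The class I enzyme hdac1 was among the brightest members, with 14.21, 14.52, 14.51 and 14.41 in crush pools and 14.10, 14.00, 14.19 and 14.26 in control pools. Only crush pool 1 lay within the control range, and the log2 fold change was 0.28 (95% interval 0.02 to 0.53, adjusted p = 0.223). The values were 0.06 for hdac3, the deacetylase of the NCoR corepressor, and -0.06 for the class IIa gene hdac4, both with intervals within 1.5-fold. For hdac9b the pools of both groups were spread so widely that the interval ran from -0.68 to 0.54. Among the 5 NAD-dependent sirtuins measured none passed and the median was 0.04. The most negative was sirt4, a mitochondrial enzyme, at -0.23 on the log2 scale (adjusted p = 0.369).

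Of the 8 acetyltransferases none passed, with 4 positive and 4 negative values and a median of -0.01. The median was 0.05 under median scaling and -0.08, with 3 positive, when scaled to the 75th percentile. The genes kat5a and kat5b are copies of Tip60, the catalytic subunit of the NuA4 complex. The pools of kat5b had 10.27, 10.29, 10.38 and 10.20 after crush and 9.99, 9.98, 9.89 and 10.13 in controls. These did not overlap, but the difference was small (log2 0.29, adjusted p = 0.162). The lowest value was -0.22 for kat2b, a coactivator enzyme also known as Pcaf (adjusted p = 0.492), and kat6a of the MYST family had -0.05. None of 25 measured subunits of deacetylase corepressor complexes passed. Among 28 other acetyltransferases and partners, 1 was over-expressed, ing5b, which reads methylated histone H3 for acetyltransferase complexes (log2 0.82, adjusted p = 0.0357).

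None of the 13 other genes grouped by name (kmt and setd) as lysine methyltransferases passed. Their log2 fold changes ran between -0.27 and 0.22, with a median of 0.09. The lowest was setd1ba, whose relatives methylate histone H3 at active promoters, with 10.76, 10.49, 10.49 and 10.69 in crush pools and 10.82, 10.90, 10.72 and 11.05 in control pools. Crush pool 1 lay just above control pool 3, and the log2 fold change was -0.27 (adjusted p = 0.255). Next was kmt5c, an enzyme of methylation on histone H4, with -0.26 (adjusted p = 0.352). The values were 0.07 for kmt2a, the Mll enzyme that marks active genes, and 0.13 for both setdb1a and setdb1b, which are known for silencing through histone H3. Each of these 3 intervals lay within 1.5-fold.

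The 11 lysine demethylases also held no call. Their median log2 fold change was -0.01, and 5 were positive, whereas the median was 0.10 with 8 positive under median scaling. Under that scaling 6 of the 11 lay above the median of all genes. The value was 0.15 for kdm1a, which removes methyl groups in the CoREST complex, -0.20 for kdm2aa, a jumonji enzyme, and -0.11 for kdm6bb, whose family removes the mark that ezh2 places. Pool values of kdm6bb were 11.66, 11.36, 11.05 and 11.43 in crush and 11.27, 11.44, 11.48 and 11.74 in control pools. They overlapped almost fully. None of 25 further methyltransferases and partners and none of 9 further demethylases and jumonji genes passed.

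Arginine methyltransferases act on histones, splicing factors and ribosomal proteins. None of the 9 passed both thresholds, but in 4 of them, prmt1, prmt3, prmt5 and prmt6, no crush pool lay as low as any control pool, which held for 10.3% of all genes. Their median log2 fold change was 0.22 and 8 of 9 were positive, or 7 of 9 when the processed signal was scaled to the 75th percentile. The exception was prmt9, at -0.05. The lowest adjusted p was that of prmt6, with 10.86, 10.98, 10.98 and 10.88 in crush pools and 10.29, 10.59, 10.49 and 10.47 in control pools. The log2 fold change of 0.46 (standard error 0.10) had an adjusted p of 0.0477 but was below 1.5-fold. At any fold, 3 of the 89 genes, prmt6, ezh2 and suz12a, had an adjusted p of at most 0.05. Of all genes, 3.99% did.

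Larger but less even was prmt3, known for methylating a ribosomal protein, with 9.32, 9.17, 9.28 and 8.63 in crush pools and 8.56, 8.61, 8.37 and 8.55 in control pools. Crush pool 4 lay only just above the controls, and the log2 fold change was 0.58 (adjusted p = 0.100). For prmt5, the main enzyme of symmetric arginine methylation, the crush pools had 11.39, 11.28, 11.32 and 11.42 and the control pools 10.91, 10.85, 10.94 and 11.19. The log2 fold change was 0.38 (adjusted p = 0.0986). The bright prmt1, the main enzyme of asymmetric methylation, had a log2 fold change of 0.22 (adjusted p = 0.241) and the coactivator enzyme carm1 one of 0.17 (adjusted p = 0.378). Of 8 measured partners, 1 was over-expressed, riok1, an adaptor of prmt5 in mammals, with 12.59 ± 0.20 in crush and 11.89 ± 0.05 in control pools (SD, n = 4 each) and a log2 fold change of 0.70 (adjusted p = 0.0207). Another partner of prmt5, wdr77, had 0.21 (adjusted p = 0.302).

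Among the 12 SWI/SNF-related genes none passed, and 10 were positive under each of the 3 scalings. Their median was 0.13, or 0.21 under median scaling and 0.07 when scaled to the 75th percentile. Less the median of all genes, these were 0.12, 0.17 and 0.10. The highest was smarce1, which encodes an HMG-box subunit, with 13.35, 13.66, 13.57 and 13.30 in crush pools and 12.96, 12.85, 12.95 and 13.11 in control pools. The groups did not overlap, and the log2 fold change was 0.50 (standard error 0.12, adjusted p = 0.0600). All 3 probes of smarce1 were positive, at 0.50, 0.27 and 0.30. The ATPases smarca4a (Brg1) and smarca5, of the ISWI family, had log2 fold changes of 0.07 and 0.15, and the core subunits smarcb1a and smarcd1 had 0.15 and 0.16. All 4 intervals lay within 1.5-fold. Of 26 other remodelling subunits, 1 was over-expressed, ercc6l, whose product works on DNA bridges in mitosis (log2 1.45, adjusted p = 0.0259). It was well above background on 4 crush and 2 control arrays.

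The 3 CHD remodellers measured were not called. The log2 fold change of chd4a, the ATPase of the NuRD deacetylase complex, was 0.22 (adjusted p = 0.301) and that of chd1, which acts with elongating polymerase, was -0.01. The median was -0.01, and it was 0.09 under median scaling and 0.03 when scaled to the 75th percentile. The 9 bromodomain genes had a median of 0.01. The log2 fold change was 0.08 for brd2a, a reader of acetylated histones, and -0.04 for brd9, a SWI/SNF subunit. In brd7 the pools had 11.43, 11.43, 11.33 and 11.06 after crush and 11.46, 11.47, 11.47 and 11.45 in controls. Its groups did not overlap because the control pools lay within a very narrow range, and the log2 fold change was -0.15 (adjusted p = 0.504).

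Zebrafish carry many of these genes as a and b copies. The change in the a copy was set against the change in the b copy in 9 pairs, by an exact two-sided permutation test over the 70 ways to relabel the pools, for which the smallest possible p is 0.0286. In suz12a and suz12b the changes differed by 0.79 on the log2 scale (standard error 0.11, exact p = 0.0286, 0.129 after adjustment over the 9 pairs), with no overlap between the groups. In kat5a and kat5b they differed by -0.41 (standard error 0.10, exact p = 0.0286, adjusted 0.129), again with no overlap. Neither passed after adjustment, and with 9 pairs the smallest possible p in 2 of them cannot do so. The difference was 0.37 for kmt5aa and kmt5ab and 0.28 for dnmt3aa and dnmt3ab (exact p = 0.143 for each). In the 5 remaining pairs, of brd2, brd3, kat7, setdb1 and smarcb1, it lay between -0.03 and 0.06.

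**Figure D3:**
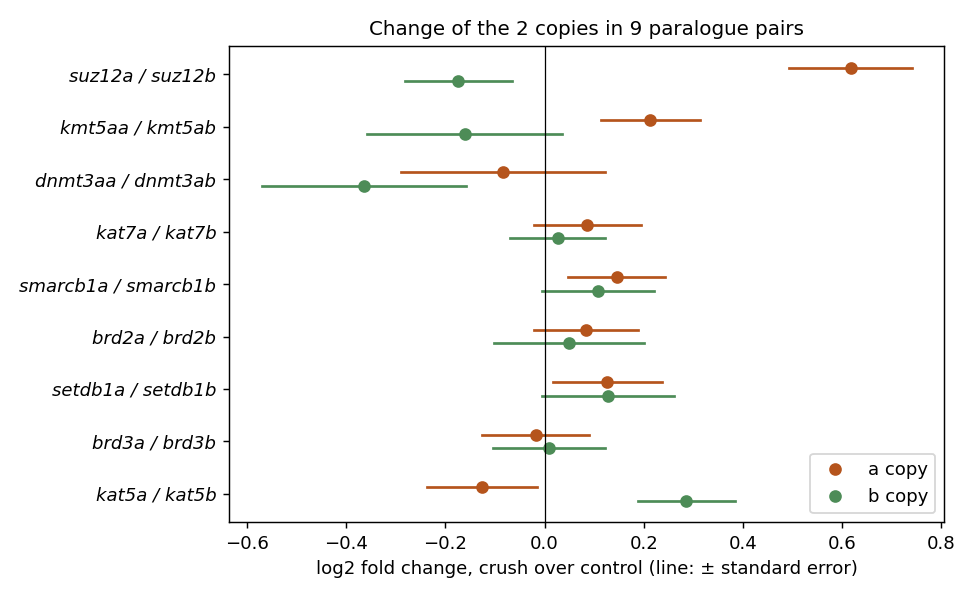
Log2 fold change of crush over control (horizontal axis, lines are ± standard error) for both copies of 9 gene pairs. The copies of suz12, kmt5a and kat5 lie apart and on opposite sides of 0, and those of setdb1, brd3, brd2 and smarcb1 lie close together.

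Partners of these enzymes were read in the same way. Over 9 lists of partners and related chromatin genes, over-expression was called in 8 of 192 measured genes (4.17%), against 2.47% of all genes, and under-expression in none, against 0.883%. Their median log2 fold change was 0.07. The count of 8 was 1 when control pool 3, crush pool 2 or crush pool 3 was left out, and 1 with the replicate block. The histone chaperones held 2 of the 8 among 20 measured genes. They were npm1a, a nucleolar chaperone, with a mean log2 signal of 12.79 ± 0.20 in crush and 11.52 ± 0.28 in control pools (log2 1.27, adjusted p = 0.00632), and nap1l4a, which carries histones H2A and H2B (log2 0.65, adjusted p = 0.0183). Genes that copy DNA in S phase had larger fold changes. Of 30 measured S-phase genes, 4 were over-expressed and 1 was under-expressed, with a median log2 fold change of 0.39. The helicase subunits mcm6 and mcm7 had 1.38 and 0.87, the nucleotide enzyme tyms had 1.66 and cdc45, well above background on 2 control arrays, had 1.38. The under-expressed gene was gins2, at -0.92, although the mean over its probes was 0.02.

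Markers of dividing cells and of myeloid cells were read alongside these genes. The mean log2 signal of 3 proliferation markers measured of 5 was 8.72 to 9.22 in crush and 7.28 to 8.30 in control pools, and 1 of them passed, ccnb1. The log2 fold change was 1.78 for ccnb1, 1.23 for mcm5 (adjusted p = 0.0628) and 0.02 for pcna (adjusted p = 0.979), whose pools overlapped. The 5 microglia and macrophage markers measured of 7 averaged 9.34 to 10.03 in crush and 9.03 to 9.52 in control pools, and none passed. Of these, csf1ra had a log2 fold change of -0.23, and mpeg1.1, lcp1, coro1a and spi1b lay between 0.40 and 0.59. All of these markers were well above background in both groups. Relative to the control mean, the S-phase genes averaged 0.36, 0.50, 0.41 and 0.54 in crush pools and 0.10, -0.11, -0.18 and 0.20 in control pools. Crush pool 4, where they were highest, was also the highest for ezh2 and uhrf1 and the lowest of the crush pools for suz12a, prmt3 and smarce1. The part of dividing or myeloid cells in the difference of any chromatin gene was not tested.

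The chromatin genes as a set varied between control pools about as much as between groups. Their median deviation from the control mean was 0.12, 0.07, 0.08 and 0.06 in the crush pools and -0.05, -0.08, -0.01 and 0.11 in the control pools. Control pool 4 thus lay within the range of the crush pools, and it was the highest of the 8 pools for 22 of the 89 genes. Probes of a gene were compared where more than 1 was well above background on at least 4 arrays, in 69 genes. The median range between them was 0.16 on the log2 scale, and only in dnmt3ab and uhrf1 did the range exceed 1.5-fold. All compared probes had the same sign in 39 of the 69 genes. These include suz12a, whose further probe met the background rule through the crush arrays alone.

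The 2 called genes differed in how they held up. With one pool left out at a time, ezh2 passed in 7 of 8 sets, failing only without crush pool 3 (adjusted p = 0.0520), whereas suz12a passed in 2 of 8, with adjusted p between 0.0415 and 0.109. With the mean of all probes of a gene, and with the replicate number as a block, neither gene passed, and the log2 fold change of ezh2 was 0.57 with the mean of probes. Under median scaling ezh2, smarce1 and prmt6 passed and suz12a did not, and prmt3 passed when crush pool 4 was left out. Among all genes the split of calls depended on scaling. It was 325 higher and 116 lower as processed here, and 292 higher and 226 lower with the processed signal scaled to the 75th percentile. No chromatin gene was under-expressed in either, where 0.883% and 1.72% of all genes were. With shares this small, a count of 0 among 89 genes is not far from that of genes at large.

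**Figure D4:**
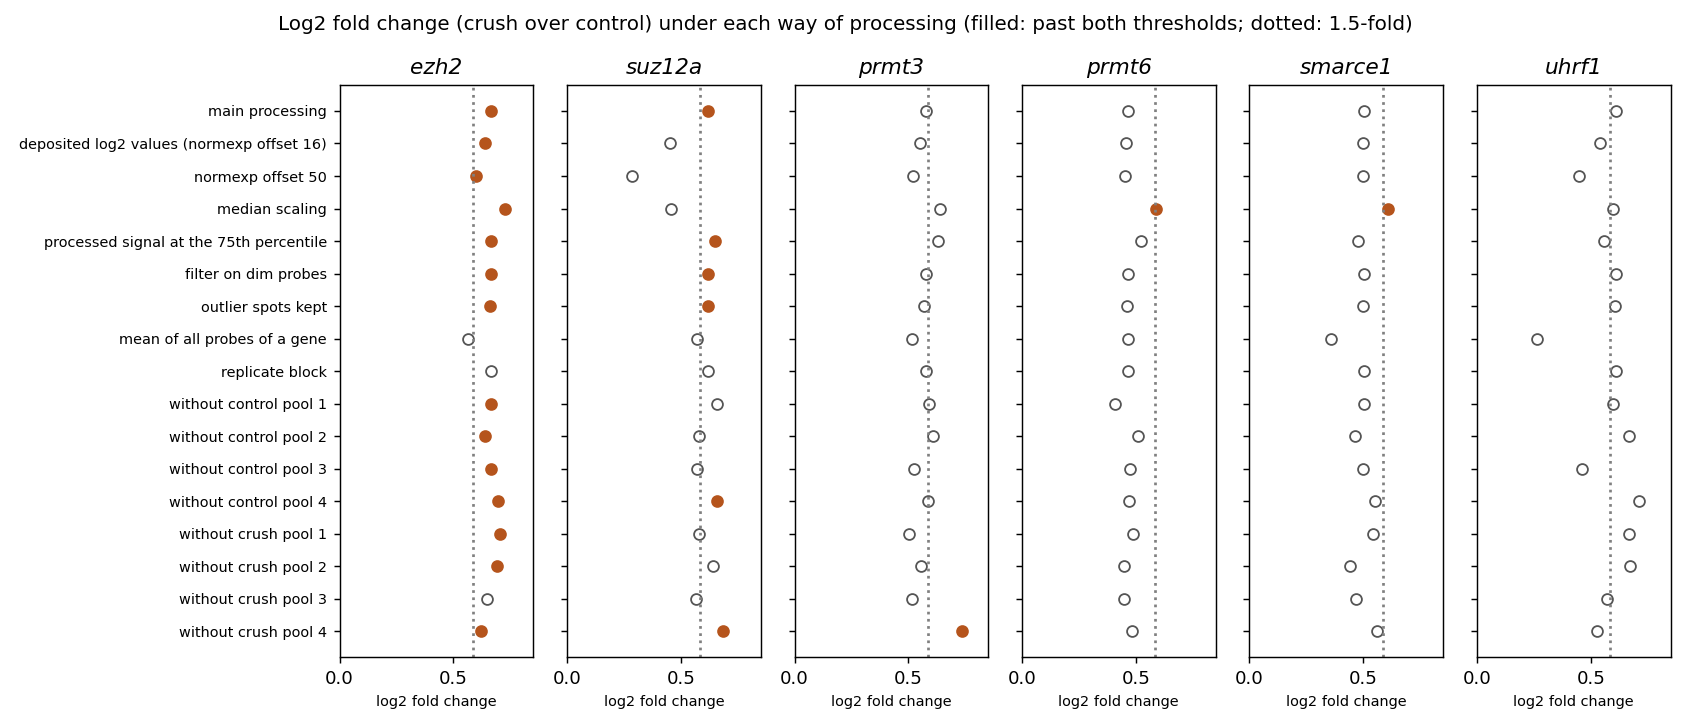
Log2 fold change of crush over control (horizontal axis) for 6 chromatin genes under each way of processing and with each pool left out (rows). Filled points passed both thresholds and dotted lines mark 1.5-fold. For ezh2 the values stay between 0.57 and 0.73, and suz12a drops to 0.28 at the larger background offset.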

How the data were processed

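Labelled RNA of 4 crush and 4 control pools was hybridised to Agilent zebrafish arrays. The deposited scanner files hold the median intensity and local background intensity of each spot, and a processed signal intensity, without normalisation between arrays. The authors also deposited log2 values, which were recovered with limma's normexp (offset 16) and quantiles taken over every spot, with no unused sample columns. Here normexp with an offset of 0 was applied to the median signals (mean signals, which had been planned, were not used), control spots were dropped, outlier spots were left out, and all arrays were brought to the same quantiles before log2 was taken. Spots of a probe were averaged. Probes were tested with lmFit and eBayes (limma 3.58.1, R 4.3.3), without covariates, adjusted over 43601 probes. Each gene was read from the probe with the highest mean log2 signal, called its brightest. Symbols came from RefSeq accessions (assembly GRCz12tu), which matched 25598 probes (58.7%). Neither the labels nor the paper state that replicate numbers pair the pools, and the main fit did not use them. The pools held different fish, and the number of arrays limits the precision. The limma fit and the thresholds were tried on simulated log2 values, and the steps before and after them were not. Python 3.11.15 with numpy 2.4.6, pandas 2.3.3, matplotlib 3.10.9 and scipy 1.17.1 made the tables and figures.

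Named genes were the called members, the 5 highest and 5 lowest of the others, 44 anchors fixed by role, of which 28 were measured, and the partner genes past the thresholds, at most 12 with the largest change. The genes nap1l4a, hells, eed, rbbp4, rbbp7, wdr77, hdac9b, prmt9, kat5a, brd7 and the remaining paralogues were named besides, with values known. One of the 89 members, although counted, is neither named nor plotted. Members and lists were chosen with earlier results of these data known.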

Additional observations from a re-analysis of the deposited data

Results flagged for a closer look

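In 3 of 84 groups of 4 pools, for the named genes, 1 pool stood apart from the other 3. Chance marks about 1 in 20 such groups, so that 4.2 would be marked by chance. The gap to the nearest pool over the whole range was 0.903 for dnmt3bb.1, where crush pool 2 had a log2 signal of 9.85 and the others 9.65 to 9.67. It was 0.858 for prmt1, where crush pool 3 had 14.97 and the others 14.85 to 14.86. It was 0.910 for ezh1, where control pool 4 had 8.49 and the others 8.24 to 8.26.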

How the results depend on the processing

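The number of over-expressed chromatin genes was 2 as processed here. It was 1 (ezh2) with the deposited log2 values and with an offset of 50, 0 with the mean of all probes of a gene and 0 at an absolute log2 fold change of 1.5. With pools left out it was 0 to 3, with 0 without crush pool 3. It was 3 under median scaling (smarce1, prmt6 and ezh2) and 3 with no fold threshold. The share of all genes called higher moved as well. It was 4.05% under median scaling, 2.32% with an offset of 50 and 1.07% without crush pool 3, against 2.47% as processed here. With no fold threshold, 3.99% of all genes passed in either direction. No setting gave an under-expressed chromatin gene. With both thresholds kept, the share of all genes called lower ran from 0.320% without crush pool 2 to 2.10% under median scaling. The median log2 fold change of the chromatin genes was 0.15 under median scaling, where that of all genes was 0.04. The settings for partner genes, S-phase genes and paralogues were added after seeing the data. For partner genes the count of 8 over-expressed was 1 to 9 with pools left out, and 1 without control pool 3, crush pool 2 or crush pool 3. For S-phase genes the count of 4 was 7 under median scaling and 2 at the 75th percentile, with 2 to 7 when pools were left out, and the under-expressed gene gins2 gave 0 and a log2 fold change of 0.018 with the mean of all probes. Of 671 values of 42 named chromatin genes under 16 settings, 648 counted as the same. These kept their side of the thresholds and, where not called, also kept their sign or moved by less than the spread. Of the others, 14 lost a call, 3 gained one and 6, without a call, changed sign by at least the spread. Only ezh2 and suz12a had a call to lose, and all 14 losses were theirs. With pools left out, ezh2 passed in 7 of 8 sets and suz12a in 2 of 8. Of 7 other ways of processing, apart from the replicate block, ezh2 passed in 6 and suz12a in 3. Of 639 values of genes that did not pass, 20 had the other sign. The suz12 difference stayed between 0.45 and 0.84 and the kat5 difference between -0.47 and -0.35. Cause was not tested.

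Deviations of pools with the same replicate number correlated at 0.01, -0.118, 0.017 and 0.181, and 2 of the 8 pools correlated best with their own number. With the replicate block, 0 chromatin genes were over-expressed and 0 under-expressed, 1 partner gene was over-expressed, and 149 of all genes were higher and 45 lower, against 325 and 116.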
